A study of Mus musculus with 6 samples.

Results

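The circadian clock genes of mouse hippocampus were Per1, Per2, Per3, Cry1, Cry2, Dbp, Nr1d1, Nr1d2, Arntl and Clock. They were found by symbol in the deposited gene table, where all 10 stood among 15639 rows, and all 10 were among the 13700 genes tested. Hippocampus of mice aged 6 months was sequenced as total RNA in 6 libraries. The 3 libraries labelled APP/PS1 came from mice expressing the transgenes APP695swe and PS1-dE9, a model of amyloid deposition, and the 3 labelled WT came from wild-type controls. The sources used here state neither the transgene promoter nor sex, litter, light cycle or time of day at collection. Nor do they tie a replicate number to its own animal, so each p-value reflects spread among libraries that may be technical in part. The question asked of these genes was whether the libraries differ in clock phase by label, as they would if tissue had been collected at different times of day.

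The clock runs in most cells as a feedback loop of transcription. CLOCK and BMAL1, the product of Arntl, bind E-box elements and switch on the Per and Cry genes, whose proteins return to block that activation. The same elements drive Nr1d1 and Nr1d2, which encode the REV-ERB repressors of Arntl, and Dbp, which encodes a PAR bZIP factor that binds D-box elements in output genes. Dbp and Nr1d1 transcripts are known to peak at times of day opposite to Arntl, so their ratio is a common readout of phase. Per1 and Per2 have a second input, since cAMP and calcium signalling and glucocorticoids can induce them at any hour, also in hippocampal neurons.

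Levels are given as FPKM, fragments scaled by transcript length and by mapped total, from the deposited table. Library sums of FPKM ran from 182355 to 185217, and read depth is unknown. App, which encodes the precursor of amyloid beta, had 153.1, 71.0 and 166.2 FPKM in APP/PS1 replicates 1 to 3, against 69.8, 68.5 and 145.6 FPKM in WT replicates 1 to 3. Prnp, the prion protein gene whose promoter drives the transgenes of the widely used line, had 471.6, 198.6 and 463.8 FPKM against 188.1, 181.5 and 457.2 FPKM. The library labelled APP/PS1 replicate 2 and the library labelled WT replicate 3 thus went against their labels, and the log2 fold change of each of the 10 clock genes is also given for the other 4 libraries. All 10 hippocampal neuron markers looked for, among them Prox1 and Wfs1, were listed in the files, with sums of 189.5 to 209.6 FPKM in APP/PS1 and 213.8 to 219.5 FPKM in WT libraries.

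The sequences around the start sites were searched for the elements through which the loop is known to act. RefSeq windows of GRCm38.p6, running from 250 bases before a gene's start to 50 bases after it, were given for 9 of the 10 genes. They were searched on both strands for the E-box CACGTG, the related element CACGTT, the D-box TTATGTAA or TTACGTAA, the REV-ERB and ROR element (RORE), which ends in AGGTCA or GGGTCA after an A/T-rich start, and the cAMP response element (CRE) TGACGTCA or its core TGACG, which any full CRE also holds. Matches are shown in capitals, for Per1 because it differed most by label, and for Cry1, Per3 and Arntl because each holds an element of a different arm of the loop. Each is written 5′ to 3′ on the strand of the gene.
Per1, upstream start, chr11:69098699-69098998, plus strand: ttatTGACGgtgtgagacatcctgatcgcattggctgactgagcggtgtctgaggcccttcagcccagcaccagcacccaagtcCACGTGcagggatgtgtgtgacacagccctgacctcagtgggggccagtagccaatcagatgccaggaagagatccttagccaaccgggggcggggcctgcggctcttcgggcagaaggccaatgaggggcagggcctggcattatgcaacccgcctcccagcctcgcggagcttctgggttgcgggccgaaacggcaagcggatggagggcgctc
Per1, downstream start, chr11:69099902-69100201, plus strand: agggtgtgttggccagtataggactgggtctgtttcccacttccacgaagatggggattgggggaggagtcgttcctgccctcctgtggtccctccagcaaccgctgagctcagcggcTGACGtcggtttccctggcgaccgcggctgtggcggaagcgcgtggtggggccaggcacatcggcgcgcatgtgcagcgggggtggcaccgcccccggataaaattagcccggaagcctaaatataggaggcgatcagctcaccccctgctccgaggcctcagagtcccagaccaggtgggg
Cry1, chr10:85185005-85185304, minus strand: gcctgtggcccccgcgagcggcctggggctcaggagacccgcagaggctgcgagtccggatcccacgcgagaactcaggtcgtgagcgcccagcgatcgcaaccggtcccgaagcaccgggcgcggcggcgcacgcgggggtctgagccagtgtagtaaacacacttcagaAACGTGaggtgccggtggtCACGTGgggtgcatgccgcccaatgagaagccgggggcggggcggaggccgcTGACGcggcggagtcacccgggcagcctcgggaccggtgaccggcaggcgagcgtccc
Per3, chr4:151044616-151044915, minus strand: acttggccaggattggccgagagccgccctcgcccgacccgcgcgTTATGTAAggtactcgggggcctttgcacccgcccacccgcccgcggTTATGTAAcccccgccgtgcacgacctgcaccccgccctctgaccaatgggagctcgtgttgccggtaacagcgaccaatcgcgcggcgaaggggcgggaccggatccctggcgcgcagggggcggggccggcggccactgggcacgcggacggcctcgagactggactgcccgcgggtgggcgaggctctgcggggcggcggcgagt
Arntl, downstream start, chr7:113207261-113207560, plus strand: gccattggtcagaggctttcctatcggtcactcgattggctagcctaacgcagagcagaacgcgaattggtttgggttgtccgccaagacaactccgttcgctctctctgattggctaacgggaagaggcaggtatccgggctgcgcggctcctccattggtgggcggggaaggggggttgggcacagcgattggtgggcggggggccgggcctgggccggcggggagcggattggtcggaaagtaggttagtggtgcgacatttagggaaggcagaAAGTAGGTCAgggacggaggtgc
In the upstream Per1 window the E-box begins at base 85 of 300 and a CRE core at base 5, and in the downstream Per1 window a CRE core begins at base 119. In Cry1 the E-box begins at base 191, the related CACGTT element at base 172, read on the other strand, and a CRE core at base 243. The Per3 window holds a pair of D-boxes, at bases 46 and 93, and the downstream Arntl window a RORE at base 278. Over all 32851 windows of the RefSeq table, 7.15% hold the E-box, 4.68% CACGTT, 1.06% a D-box, 0.435% a RORE in these letters, 1.79% a full CRE and 20.8% a CRE core. Those are shares of windows, while the counts that follow are of genes, some with more than 1 window, so the 2 are not directly comparable. The E-box was matched in 2 of the 9 genes, Per1 and Cry1, and CACGTT in 3, Cry1, Cry2 and Nr1d1. Clock, Dbp and Nr1d2 held none of these elements in their windows. The D-box and the RORE were each matched in 1 gene, the CRE core in 3, Cry1, Cry2 and Per1, and the full CRE in 0. A match in these letters is a description and not a bound site.

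All 10 genes lay above the filter of 1 FPKM in every library. By mean over the 6 libraries, which compares genes per length, Nr1d1 stood first at 26.3 ± 4.89 FPKM (SD, n = 6), above Cry2 in 6 of 6 libraries. Cry2 at 18.5 ± 1.05 FPKM, Nr1d2 at 17.6 ± 2.39 FPKM and Per1 at 16.1 ± 3.65 FPKM came next, and Nr1d2 and Per1 were not ordered, with each the higher in 3 of 6 libraries. Dbp at 12.6 ± 4.19 FPKM and Clock at 9.99 ± 0.728 FPKM were likewise each the higher in 3 of 6. Per2 at 8.05 ± 1.29 FPKM lay above Per3 at 5.76 ± 0.706 FPKM in 6 of 6 libraries, and Per3 above Arntl at 5.20 ± 0.723 FPKM in 5. Cry1 was lowest in every library, at 3.96 ± 0.307 FPKM. The genes also differed in how much they varied. Over the 6 libraries the highest Dbp value was 2.15 times the lowest, the Per1 ratio was 1.86 and that of Cry2 1.18. On the log2(FPKM + 1) scale the median SD over libraries was 0.173 for the 10 clock genes and 0.104 for all genes tested. Dbp stood at percentile 97.4 of all genes tested by that SD, Per1 at 94.9 and Nr1d1 at 91.7, while Clock, Cry1 and Cry2 stood at 43.2, 38.9 and 28.5.

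**Figure D1:**
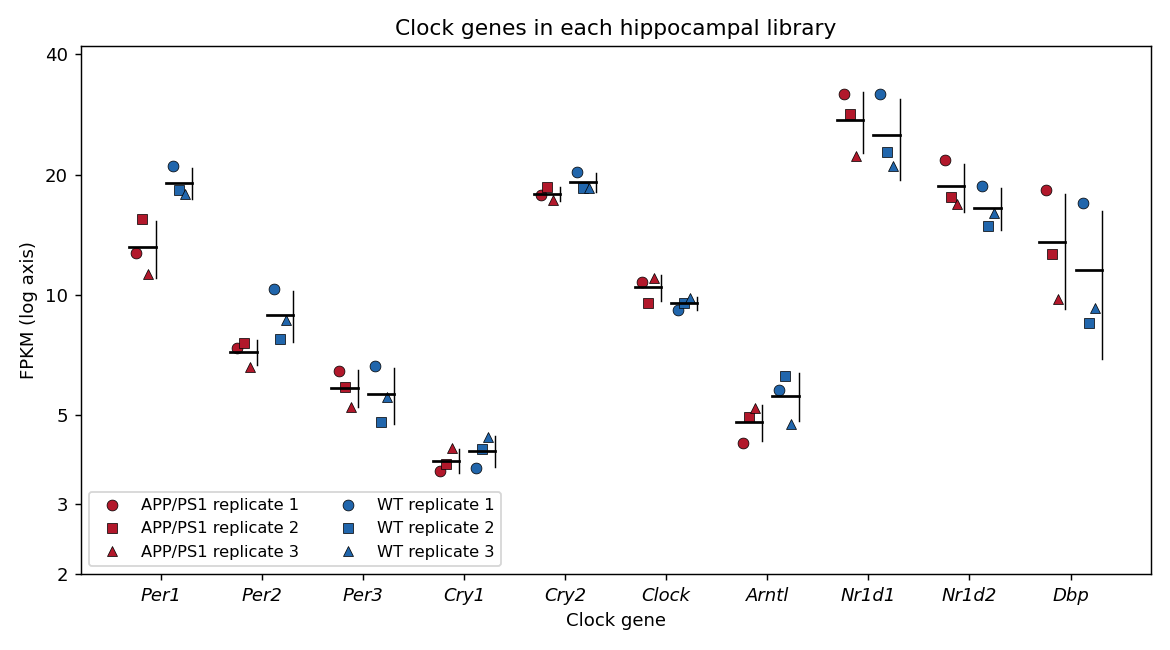
FPKM of the 10 clock genes in each library on a log axis, with APP/PS1-labelled libraries in red left of WT-labelled libraries in blue, 1 marker shape per replicate number, a bar for the mean of 3 and a line for ± 1 SD. Per1 and Per2 are the genes whose markers do not overlap between labels, while Dbp runs from 8.52 to 18.3 FPKM with both labels at both ends.

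Among the Period genes, which encode repressors at the centre of the loop, Per1 and Per2 were lower in every APP/PS1-labelled library than in any WT-labelled one, and Per3 was not. Per1 was listed at 12.7, 15.5 and 11.3 FPKM in APP/PS1 replicates 1 to 3, against 21.0, 18.3 and 17.9 FPKM in WT replicates 1 to 3. The labels did not overlap, and APP/PS1 replicate 2 lay nearest to the WT-labelled libraries. The means were 13.2 ± 2.12 and 19.0 ± 1.69 FPKM (SD, n = 3 each), a ratio of 0.691. The log2 fold change of Per1, APP/PS1 over WT on the log2(FPKM + 1) scale, was -0.51 (SE 0.114, 95% interval -0.78 to -0.24, limma unadjusted p = 0.0027), but it did not pass adjustment over all genes tested (adjusted p = 0.485). Per2 had 7.38, 7.57 and 6.61 FPKM in APP/PS1 replicates 1 to 3 against 10.3, 7.76 and 8.65 FPKM in WT replicates 1 to 3. Here the labels were separated by a narrow gap, between APP/PS1 replicate 2 and WT replicate 2, and WT replicate 1 stood highest. Its means were 7.19 ± 0.508 and 8.91 ± 1.30 FPKM, with a log2 fold change of -0.27 (SE 0.102, unadjusted p = 0.032, limma adjusted p = 0.71). Bulk RNA cannot tell fewer cells of a type from less RNA per cell. Both genes gave the smallest p that an exact two-sided permutation test of 3 against 3 libraries allows, 0.1. Per3, the paralogue least required for the rhythm, had 6.46, 5.88 and 5.24 FPKM against 6.63, 4.80 and 5.56 FPKM. Its labels overlapped over most of their range. The log2 fold change of Per3 was 0.05 with all libraries (95% interval -0.22 to 0.32) and 0.04 in the 4 libraries (95% interval -0.39 to 0.46).

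By limma 0 of the 10 clock genes passed an adjusted p of 0.05, where 0.0219% of all genes tested did. Per1 and Per2 were the 2 of 10 with an unadjusted p under 0.05, both lower, where 6.69% of all genes tested had such a p in either direction, 3.83% on the lower side and 2.85% on the higher. The same 2 of 10 were those whose labels did not overlap, against 6.51% of all genes tested on the lower side and 5.38% on the higher. The median log2 fold change of the 10 was -0.0093, with 5 negative and 5 positive, and over all genes tested it was -0.0009. In the 4 libraries that App and Prnp did not contradict, Per1 had a log2 fold change of -0.67 (limma unadjusted p = 0.000768, adjusted p = 0.144). Per2 had -0.32 there (limma unadjusted p = 0.0705, adjusted p = 0.572). With the labels of APP/PS1 replicate 2 and WT replicate 3 exchanged, the values of Per1 and of Per2 would overlap. No fit was made with them exchanged. Over the 15 alternatives the adjusted p ran from 0.108 to 1.0 for Per1 and from 0.549 to 1.0 for Per2. The unadjusted p of Per2 was also 0.05 or over with array weights (0.0503) and without WT replicate 1, WT replicate 3, APP/PS1 replicate 1 or APP/PS1 replicate 3, with 0.101 as the highest over its 15 alternatives. That of Per1 was under 0.05 in 15 of 15, with log2 fold changes from -0.67 to -0.41.

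**Figure D2:**
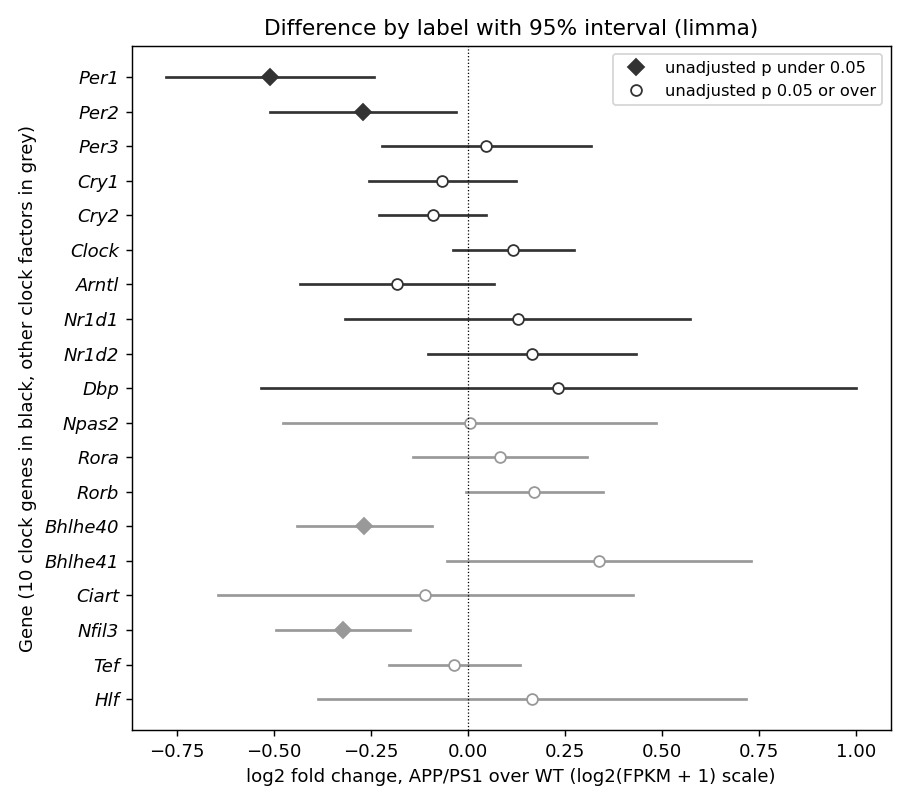
Log2 fold change of each clock gene, APP/PS1 over WT on the log2(FPKM + 1) scale, with its 95% interval from limma, the 10 clock genes in black and 9 other clock transcription factors in grey. The intervals of Per1, Per2, Bhlhe40 and Nfil3 lie below 0, the widest belongs to Dbp (-0.53 to 1.00), and none of the 19 genes passed adjustment over all genes tested.

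The Cryptochrome genes encode the partners of the PER proteins in repression, and neither differed by label beyond the spread between libraries. Cry1 had 3.63, 3.77 and 4.13 FPKM in APP/PS1 replicates 1 to 3 against 3.70, 4.11 and 4.41 FPKM in WT replicates 1 to 3, and Cry2 had 17.8, 18.6 and 17.2 FPKM against 20.4, 18.6 and 18.5 FPKM. The labels overlapped for both, and the WT replicate 1 library was the highest for Cry2 and next to lowest for Cry1. The 95% intervals of the log2 fold changes were -0.26 to 0.12 for Cry1 and -0.23 to 0.05 for Cry2, so that differences as large as those ends cannot be told from none here. In the 4 libraries the values were -0.0088 for Cry1 and -0.14 for Cry2.

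Of the activators, mean Arntl was lower and mean Clock higher in the APP/PS1-labelled libraries, but the labels overlapped for both. Arntl, which encodes BMAL1, had 4.26, 4.94 and 5.20 FPKM against 5.77, 6.27 and 4.76 FPKM. WT replicate 3 lay within the APP/PS1 range, and it is the library with high App. The log2 fold change of Arntl was -0.18 (SE 0.106, unadjusted p = 0.127). Clock, which encodes the partner of BMAL1, had 10.7, 9.57 and 11.0 FPKM against 9.18, 9.57 and 9.85 FPKM, and APP/PS1 replicate 2 lay within the WT range. Its log2 fold change was 0.12 (SE 0.0669, unadjusted p = 0.12). In the 4 libraries Arntl had -0.30 (unadjusted p = 0.0391, adjusted p = 0.532) and Clock 0.20 (unadjusted p = 0.0271, adjusted p = 0.505). Over the 15 alternatives the adjusted p was never below 0.509 for Arntl or 0.505 for Clock. Npas2, which can stand in for Clock and is strong in forebrain, had 8.88, 9.19 and 10.3 FPKM against 11.0, 11.6 and 6.45 FPKM, with the WT-labelled libraries at both ends. Without WT replicate 3 its log2 fold change was -0.24, against 0.0046 with all libraries.

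The REV-ERB genes and Dbp, driven by the E-box arm, varied widely between libraries, and their labels overlapped. Dbp had 18.3, 12.6 and 9.79 FPKM in APP/PS1 replicates 1 to 3 and 17.0, 8.52 and 9.26 FPKM in WT replicates 1 to 3. Each label thus held a high library, its replicate 1, and at least 1 library near the bottom. The log2 fold change of Dbp was 0.23 with an SE of 0.313, and the 95% interval from -0.53 to 1.00 leaves room for a sizeable difference either way. Nr1d1, which encodes REV-ERB alpha, had 31.8, 28.3 and 22.3 FPKM against 31.7, 22.7 and 21.1 FPKM. Again APP/PS1 replicate 1 and WT replicate 1 were the highest, APP/PS1 replicate 2 followed, and the other 3 lay close together. Nr1d2, which encodes REV-ERB beta, had 21.7, 17.5 and 16.9 FPKM against 18.7, 14.9 and 16.0 FPKM, the same order of libraries as Dbp. The log2 fold changes were 0.13 for Nr1d1 (interval -0.32 to 0.57) and 0.17 for Nr1d2 (interval -0.10 to 0.43). In the 4 libraries they were -0.01 for Nr1d1, 0.19 for Nr1d2 and 0.14 for Dbp. At each replicate number the APP/PS1-labelled library was the higher for each of these genes. A replicate block in limma gave unadjusted p = 0.0754 for Dbp, 0.147 for Nr1d1 and 0.0404 for Nr1d2. Their adjusted p were 0.88, 0.904 and 0.82, and no source used here pairs libraries by replicate number. Leaving out single libraries moved the log2 fold changes of these genes by unequal amounts, most of all that of Dbp. With 1 library left out, Dbp ran from 0.0088 (without APP/PS1 replicate 1) to 0.52 (without WT replicate 1), Nr1d1 from 0.0162 (without WT replicate 3) to 0.30 (without WT replicate 1) and Nr1d2 from 0.0592 (without APP/PS1 replicate 1) to 0.25 (without WT replicate 1).

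Nr1d1 overlaps Thra, the thyroid hormone receptor alpha gene on the other strand, by 1075 bases of the RefSeq annotation, and Dbp overlaps Sphk2 by 741 bases. The sources used here do not say that strand was used in counting, so reads in these stretches may be shared. Thra had 106.5, 109.2 and 99.6 FPKM in APP/PS1 and 100.6, 103.3 and 106.8 FPKM in WT libraries, and Sphk2 ran from 5.88 to 6.90 FPKM over the 6. Neither showed the order of libraries seen in Nr1d1 and Dbp. Per2, Per3, Cry2, Arntl and Clock also overlap annotated genes, none of which is in the gene table.

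Other transcription factors of the clock showed patterns of the same kinds. Of 12 looked for, 11 were in the files and 9 were tested, of which 2 had an unadjusted p under 0.05, both lower (3.83% of all genes tested), and 0 passed adjustment by limma. Nfil3, which encodes the repressor E4BP4 that competes with DBP for D-boxes, had 4.18, 4.11 and 4.65 FPKM in APP/PS1 replicates 1 to 3 against 5.24, 5.88 and 5.81 FPKM in WT replicates 1 to 3. The labels did not overlap, and the log2 fold change was -0.32 (SE 0.0736, unadjusted p = 0.0029, adjusted p = 0.485). Bhlhe40, which encodes the E-box repressor DEC1 and is also induced by neuronal activity, had 19.0, 19.9 and 17.5 FPKM against 24.4, 20.9 and 23.1 FPKM. It too did not overlap, with a log2 fold change of -0.27 (SE 0.0741, unadjusted p = 0.00819, adjusted p = 0.609). Both had an unadjusted p under 0.05 in 15 of 15 alternatives and an adjusted p under 0.05 in 0. In the 4 libraries the log2 fold changes were -0.28 for Nfil3 and -0.30 for Bhlhe40.

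Its paralogue Bhlhe41, which encodes DEC2, had 9.98, 6.00 and 8.59 FPKM against 6.78, 5.57 and 6.13 FPKM. APP/PS1 replicate 2 lay within the WT range, and the log2 fold change was 0.34 with all libraries (unadjusted p = 0.0799) and 0.52 in the 4 (unadjusted p = 0.00607, adjusted p = 0.348, range over alternatives 0.242 to 1.0). Hlf, a PAR bZIP factor like Dbp, had 27.8, 16.4 and 16.6 FPKM against 20.7, 17.2 and 14.9 FPKM, and Tef, the third of that family, 32.5, 29.8 and 27.0 FPKM against 31.6, 29.8 and 29.9 FPKM. For both, APP/PS1 replicate 1 was highest and WT replicate 1 next, as in Dbp. Ciart, a repressor known as CHRONO, had 3.04, 3.19 and 1.66 FPKM against 3.93, 2.22 and 2.58 FPKM. Rora and Rorb, which encode activators at the RORE, had log2 fold changes of 0.08 and 0.17, with overlapping labels, and in the 4 libraries 0.08 and 0.27. There Hlf had 0.18, Tef -0.0481 and Ciart -0.28. Rorb is also a cortical marker. Arntl2 lay below the filter, at 0.777 to 1.25 FPKM over the 6 libraries, and Timeless was not analysed here.

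**Figure D3:**
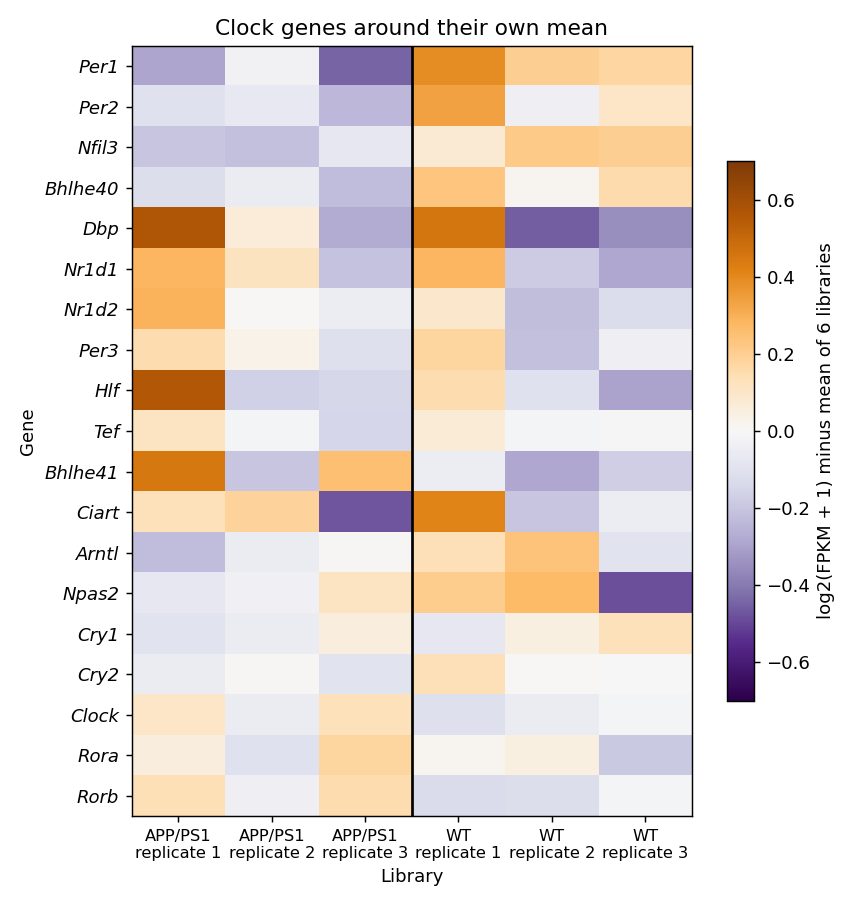
Log2(FPKM + 1) of 19 clock genes in each library, minus the mean of the 6 libraries for that gene, with APP/PS1-labelled libraries left of the line and WT-labelled libraries right of it. Per1, Per2, Nfil3 and Bhlhe40 are below their mean in all APP/PS1-labelled libraries, while Dbp, Nr1d1, Nr1d2 and Per3 are highest, within each label, in replicate 1.

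The ratio of Dbp to Arntl in each library is given as a description related to clock phase. Without samples of known time of day it does not give a phase. The log2 ratio of FPKM was 2.11, 1.35 and 0.912 in APP/PS1 replicates 1 to 3 and 1.56, 0.442 and 0.959 in WT replicates 1 to 3. The labels overlapped, with APP/PS1 replicate 3 below WT replicate 3 and WT replicate 1 above APP/PS1 replicate 2. The means were 1.46 ± 0.604 and 0.986 ± 0.557 (SD, n = 3 each), a difference of 0.472 that is smaller than either SD, and no test was made on this ratio. Leaving out single libraries gave differences from 0.148 without APP/PS1 replicate 1 to 0.757 without WT replicate 1, and the 4 libraries gave 0.511. The ratio of Nr1d1 to Arntl gave 2.90, 2.52 and 2.10 against 2.46, 1.86 and 2.15 on the log2 scale, also with overlap. The log2 ratio of Per1 to Dbp, both targets of the E-box arm, was -0.53, 0.291 and 0.206 in the APP/PS1-labelled libraries and 0.307, 1.10 and 0.949 in the WT-labelled ones. In that ratio the labels did not overlap, by a narrow gap between APP/PS1 replicate 2 and WT replicate 1. Per1 alone already separated by label, so the separation in this ratio is not a further result on phase. Time of collection was not tested, since no source used here gives it.

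Across the 6 libraries Dbp and Nr1d2 ran in the same order, and Nr1d1 shared that order in the 3 highest libraries. Per1 ordered the libraries differently. Of the 45 pairs of clock genes, 3 had an adjusted p under 0.05 by the exact permutation test of Pearson's r, with 15 under 0.05 before adjustment. An exact p of 0.00278 is the smallest that this test allows with 6 libraries. Dbp and Nr1d2 had r = 0.939 (exact p = 0.00278, adjusted p = 0.0417) and rho = 1.0 (exact p = 0.00278, adjusted p = 0.0417), and r was 0.89 without APP/PS1 replicate 1 and WT replicate 1. Cry2 and Clock ran in opposite order, with r = -0.902 (exact p = 0.00278, adjusted p = 0.0417) and rho = -1.0 (exact p = 0.00278), and r was -0.99 without APP/PS1 replicate 3 and WT replicate 1. For Cry1 and Nr1d1, a known target and its repressor, the order of the libraries was exactly opposite. No pooled r is given for that pair because Nr1d1 falls into 3 high and 3 low libraries. Per3 and Dbp had r = 0.941 (exact p = 0.0111, adjusted p = 0.0795) and rho = 0.886 (exact p = 0.0333, adjusted p = 0.219), and r was 0.94 without WT replicates 1 and 2. Dbp and Arntl, the pair known to be opposite in phase, had r = -0.41 (exact p = 0.428, adjusted p = 0.78) and rho = -0.486, and r was -0.556 without APP/PS1 replicate 1 and WT replicate 1. Per1, which separates by label, is described by order only: from highest to lowest Per1 ran WT replicates 1, 2 and 3, then APP/PS1 replicates 2, 1 and 3, while Dbp ran APP/PS1 replicate 1, WT replicate 1, APP/PS1 replicates 2 and 3, then WT replicates 3 and 2. The genes share the 6 libraries and their scaling, and both labels enter each r.

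The mean of genes induced by neuronal activity, a known second input to Per1, ordered the libraries as Per1 did, though single genes of the list need not. Every 1 of the 12 listed was lower by fold change (median log2 value -0.79), and 11 had an unadjusted p under 0.05, all lower, where 3.83% of all genes tested did. By limma 0 of the 12 passed adjustment over all genes. The list mean, in log2 units around the mean of the 6 libraries, was -0.499, -0.003 and -0.772 in APP/PS1 replicates 1 to 3 and 0.545, 0.391 and 0.338 in WT replicates 1 to 3. From highest to lowest the order was WT replicates 1, 2 and 3, then APP/PS1 replicates 2, 1 and 3, exactly that of Per1. Per1 and 11 of the 12 genes did not overlap between labels, all lower (6.51% of all genes tested), so the label enters this match. Only the order within each label was free to differ. Egr2, a zinc finger transcription factor, had 1.53, 3.26 and 1.54 FPKM against 6.67, 5.57 and 5.42 FPKM, and Fosb, an AP-1 subunit, 2.04, 2.88 and 1.89 FPKM against 4.26, 5.15 and 5.16 FPKM. Bhlhe40 and Per2 were lowest in APP/PS1 replicate 3 and highest in WT replicate 1, as the list mean was. The part of neuronal activity in the Per1 and Per2 values was not tested.

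**Figure D4:**
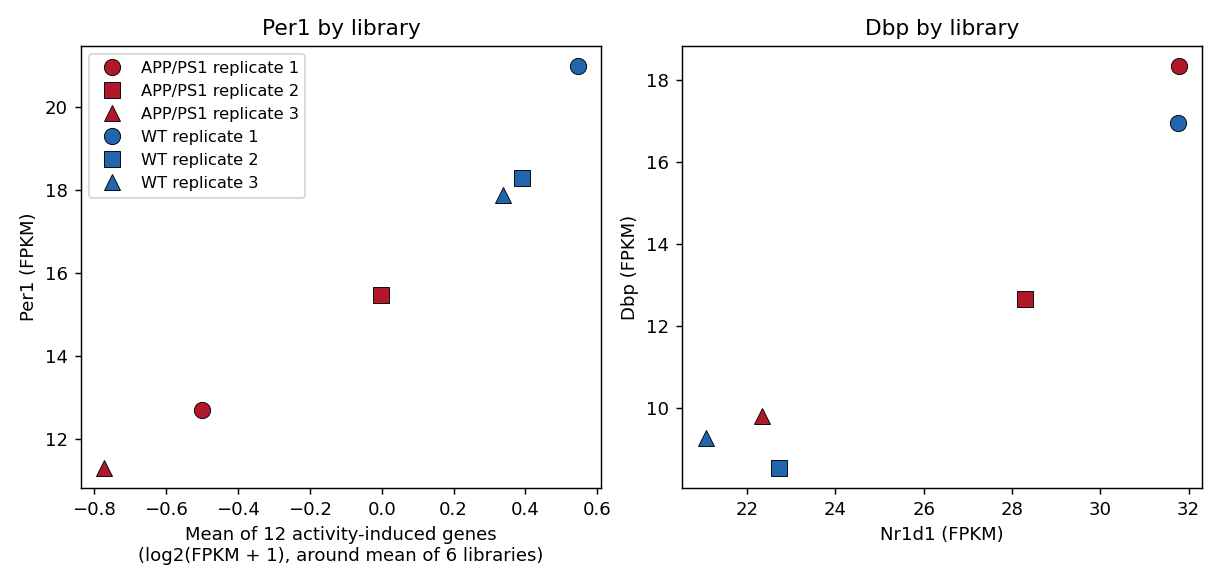
Left, Per1 (FPKM) against the mean of the 12 activity-induced genes in each library, in log2(FPKM + 1) around the mean of 6 libraries. Right, Dbp against Nr1d1, both in FPKM. Red markers are APP/PS1-labelled and blue markers WT-labelled libraries, with 1 shape per replicate number. Left, the 3 APP/PS1-labelled libraries lie below the WT-labelled ones on both axes, and right, each label has libraries at both ends.

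Glucocorticoid-induced and temperature-responsive genes, which mark other known inputs to the Period genes, had negative median log2 fold changes, APP/PS1 over WT. The 14 glucocorticoid-induced genes were all below 0 on the log2 scale (median -0.39), 9 with an unadjusted p under 0.05, all lower (3.83% of all genes tested), and 0 past adjustment by limma. Their list means were -0.337, 0.04 and -0.287 against 0.218, 0.147 and 0.219. APP/PS1 replicate 2 again lay nearest to the WT-labelled libraries. Of 10 temperature-responsive genes 8 were negative, with a median of -0.39, 4 with an unadjusted p under 0.05, all lower (3.83% of all genes tested), and 0 past adjustment by limma. Besides the pair given next, these were Hspa1a and Dnajb1, named after their values were seen. Their list means overlapped, at -0.271, 0.047 and -0.385 against 0.325, 0.046 and 0.238. Among them Hsph1, a chaperone of the Hsp110 family, had 32.4, 34.8 and 34.8 FPKM against 43.9, 39.4 and 41.0 FPKM, and Hspb1, a small heat shock protein gene, 5.58, 10.3 and 4.15 FPKM against 14.6, 10.6 and 12.7 FPKM. The temperature list also holds Cirbp and Rbm3, which need not respond to temperature as heat shock genes do. Its median and list means therefore give no direction of temperature. Whether glucocorticoid or temperature inputs bear on Per1 was not tested.

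Of the genes that the clock is known to control downstream, 7 had labels that did not overlap, all lower, where 6.51% of all genes tested did. Of 21 looked for, 17 were tested, 13 were negative and 6 had an unadjusted p under 0.05, all lower (3.83% of all genes tested), with a median of -0.16 and 0 past adjustment by limma. Of the 21, 6 are also on the glucocorticoid list. Pdk4, a kinase that restrains pyruvate dehydrogenase, had 3.72, 3.66 and 3.86 FPKM against 5.32, 5.25 and 6.13 FPKM (log2 fold change -0.47, unadjusted p = 0.00035). Cdkn1a, the cell cycle inhibitor p21, had 2.37, 3.50 and 2.73 FPKM against 4.47, 5.38 and 5.93 FPKM (log2 fold change -0.70, unadjusted p = 0.000966). For both the labels did not overlap. Tsc22d3, the glucocorticoid-induced leucine zipper gene, had 6.29, 10.5 and 8.00 FPKM against 12.1, 11.8 and 12.5 FPKM, and Klf15, a Kruppel-like factor, 8.30, 9.22 and 8.08 FPKM against 10.4, 9.57 and 10.4 FPKM. Their labels did not overlap either, with log2 fold changes of -0.52 and -0.22. Pdk4, Cdkn1a and Tsc22d3 are on both lists.

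The kinases, ubiquitin ligases and cofactors that set the pace of the loop had a median log2 fold change near 0. Of 24, 23 were tested, 14 were negative and 9 positive, with a median of -0.0092, and 0 had an unadjusted p under 0.05 or passed adjustment by limma. In 3 of them, Csnk1a1, Nono and Sfpq, named after their values were seen, the labels did not overlap, all lower (6.51% of all genes tested). Csnk1d, the kinase that marks PER proteins for degradation, had 17.0, 19.9 and 16.7 FPKM against 18.4, 20.2 and 21.0 FPKM. Usp2, a ubiquitin protease whose own transcript cycles, had 11.4, 11.8 and 9.62 FPKM against 13.4, 11.9 and 11.6 FPKM. Prkaa1, a catalytic subunit of the kinase AMPK, and Crebbp, the coactivator CBP, had log2 fold changes of 0.15 and -0.09. The labels overlapped for all 4.

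The genes whose pattern over the 6 libraries was most like a given clock gene were named by Pearson's r on log2(FPKM + 1), among tested genes with an SD of at least 0.2 and a regular symbol. With 6 points and 1569 genes compared for Dbp and 1570 for Arntl, values near 1 are found for many genes. Those most like Dbp were Synpr (0.986), Vps41 (0.981), Hdhd3 (0.979), Rbm8a (0.969) and Alg11 (0.966), none of them on the clock lists. For Arntl they were Lncpint (0.977), Dlk2 (0.97), Gls2 (0.97), Psenen (0.957) and Cox6a2 (0.947). The same rule, applied to Per1 after its values were seen, gave Fosl2 (0.995), Nr4a1 (0.993), Npas4 (0.992), Junb (0.99) and Egr1 (0.989). All 5 are known as immediate early genes, and 4 of them are on the activity list. For Per2 it gave Mrpl53 (0.979), Ndst4 (0.979), Fam89b (0.963), St3gal2 (0.962) and Myoc (0.953). The 5 genes for Per1 and the 5 for Per2 share none. For Per1, Per2 and all 5 genes given for Per1 the labels did not overlap, so the difference by label enters these r.

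Markers of other tissue were measured beside these results. The summed choroid plexus markers, an epithelium outside the hippocampus, ran from 1134 to 1412 FPKM in APP/PS1 and from 872.5 to 1222 FPKM in WT libraries, with 9 of 9 log2 fold changes positive and 3 with an unadjusted p under 0.05 (Folr1, Kcne2 and Sostdc1), where 2.85% of all genes tested were higher with such a p. Myelin markers summed to 396.7 to 479.6 FPKM against 328.7 to 421.5 FPKM, with 8 of 8 positive. Of these, 4 had a limma unadjusted p under 0.05, all higher (2.85% of all genes tested). In 2 of the 8 the labels did not overlap, both higher (5.38% of all genes tested). Thalamus markers summed to 28.8 to 30.7 FPKM against 20.1 to 38.4 FPKM, and cortex markers, of which Rorb is 1, to 22.9 to 30.0 FPKM against 18.9 to 30.4 FPKM. Cortex markers were lowest in WT replicate 3, as Npas2 was. Astrocyte markers summed to 244.8 to 273.3 FPKM against 251.7 to 269 FPKM and microglia markers to 89.6 to 99.1 FPKM against 90.3 to 96.5 FPKM, both overlapping. Endothelial markers summed to 31.4 to 39.9 FPKM against 30.7 to 32.4 FPKM, with 6 of 6 positive and 1 with an unadjusted p under 0.05 (Ly6c1), whose labels did not overlap. The markers named here were chosen after their values were seen, and 0 passed adjustment by limma. Hippocampal neuron markers were lower by sum in each APP/PS1-labelled library, with 9 of 10 log2 fold changes negative and a median of -0.12. Of these, 1 had a limma unadjusted p under 0.05, on the lower side (3.83% of all genes tested). In 2 the labels did not overlap, both lower (6.51% of all genes tested). No marker listed in the files was at 0 in all libraries. The part of tissue makeup in the Per1, Per2, Nfil3 and Bhlhe40 values was not tested.

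Of 2246 circular RNAs deposited, 257 are listed with coordinates, and of these 0 lay inside 1 of the 10 clock genes or of the other clock transcription factors, by the GRCm38 gene spans that held 254 of them. Circular RNAs without coordinates were not analysed here. The submitters' processing notes name mm9, and the coordinates were not converted between builds.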

How the data were processed

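The deposited gene values name no unit. They are read as FPKM computed by the authors, from their decimals and sums and because StringTie stands in the submitters' processing notes, beside HISAT2, FastQC and mm9, all without versions. The circRNA tables hold whole read counts deposited by the authors, and no source used here names their caller. A gene was tested when 3 or more libraries reached 1 FPKM. Testing used limma 3.58.1 in R 4.3.3 with trend and robust settings, on log2(FPKM + 1), with a single term for the label and Benjamini-Hochberg adjustment over 13700 genes at 0.05. This scale understates the fold changes of low genes. Exact permutation tests used scipy 1.17.1, and the limma step was tested on simulated data.

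The 10 genes, the lists, the tests and the rule for names were chosen with earlier results of these data known. The rule names all 10 genes, all other clock factors in the files (1 of them is not reported here), the 4 smallest p of the regulator and output lists, up to 2 of each other list, and the 5 genes most like Dbp and Arntl. Sphk2 and the genes most like Per1 and Per2 were added after values were seen. Alternatives were other pseudocounts, filters, scalings (edgeR 4.0.16 for TMM factors) and limma settings, a replicate block and libraries left out.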

Additional observations from a re-analysis of the deposited data

How the results depend on the processing

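The 10 clock genes had 0 adjusted p under 0.05 by limma in the 15 alternatives (14 for Cry1, which was not tested at a minimum of 5 FPKM), and 2 with an unadjusted p under 0.05 in the fit as reported. That count of 2 ranged from 1 (Per1, without WT replicate 1, APP/PS1 replicate 1 or APP/PS1 replicate 3) to 3 with single libraries left out and was 2 with array weights (Per1 and Arntl), 3 with the replicate block (Per1, Per2 and Nr1d2) and in the 4 libraries (Per1, Arntl and Clock). Over all genes, 3 passed as reported, 5 with array weights, 1 with the replicate block, 27 in the 4 libraries and 2 to 30 with single libraries left out (30 without APP/PS1 replicate 2, 11 without WT replicate 3, 7 without WT replicate 1, 6 and 5 without APP/PS1 replicates 1 and 3, and 2 without WT replicate 2). Deviations of same-numbered libraries correlated at 0.01, -0.056 and -0.094 over all genes tested. A value over all genes cannot tell whether a few genes, such as those of the clock, vary with replicate number. Within each label Dbp, Nr1d1, Nr1d2 and Per3 were highest in replicate 1, and the cause of that was not tested. The difference in the Dbp to Arntl ratio ranged from 0.148 to 0.757 with single libraries left out. Egr2 passed in 2 alternatives, without APP/PS1 replicate 2 and in the 4 libraries (adjusted p over alternatives 0.00804 to 0.699), and Fosb in 1, without APP/PS1 replicate 2 (0.0359 to 0.578).

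Some log2 fold changes changed sign. With single libraries left out Per3 ran from -0.0482 (WT replicate 2) over -0.0148 (APP/PS1 replicate 1) to 0.15, and Npas2 from -0.24 (WT replicate 3) over -0.0505 (APP/PS1 replicate 3) to 0.14. Npas2 was -0.12 with array weights, and in the 4 libraries Npas2 was -0.22 and Nr1d1 -0.0115. Ciart reached 0.0694 (leaving out WT replicate 1) and 0.0994 (APP/PS1 replicate 3). Tef ran from -0.0981 to 0.0312 (APP/PS1 replicate 3), Hlf from -0.074 (APP/PS1 replicate 1) to 0.29, and Thra from -0.0079 (APP/PS1 replicate 2) over -0.0003 (WT replicate 1) to 0.0583. Sphk2 was 0.003 with TMM scaling, 0.0005 leaving out APP/PS1 replicate 3 and 0.044 leaving out WT replicate 2. The cause was not tested. The depth behind these FPKM is unknown.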
